A study of Oryza sativa with 12 samples.

Results

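The phosphate response of rice leaves was read here where PHR3 was already missing. The phr1phr2phr3 triple mutant, written phr123 below, was compared with the phr3 mutant. By their labels these genotypes differ in the added loss of PHR1 and PHR2. The comparison used 6 of the 12 arrays of the study, 3 of phr123 and 3 of phr3, and the other arrays were 3 of the wild type (WT) and 3 of the phr1 mutant. Each array held RNA from the green parts of rice (Oryza sativa) seedlings raised in solution culture for 14 days with 200 µM phosphate and then for 7 days with none. Every genotype was starved, the controls included, and no array with phosphate was among those analysed. The labels give the 3 arrays of a genotype as biological repeats. WT was the cultivar Nipponbare. The labels name no background for the mutants, no kind of allele at any locus, and not whether each mutant is 1 line or several. Differences of line or background can thus not be told apart from the added losses. A phr2 mutant and a phr1phr2 double mutant were not analysed here, so the parts of PHR1 and of PHR2 in any difference cannot be told apart.

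PHR proteins are MYB transcription factors that bind a short palindrome in the promoters of genes switched on when phosphate runs short. When phosphate is plentiful, SPX proteins bind inositol pyrophosphates and hold the PHR proteins away from DNA. Genes of SPX1, SPX2, SPX3 and SPX5 are themselves PHR targets, which makes their transcripts a common readout of the pathway. In rice PHR2 is the best known member, and PHR1 and PHR3 are related factors with overlapping roles. Other targets carry phosphate across membranes (PHT1 transporters, PHO1 exporters) or replace phospholipids with galactolipids (MGD enzymes).

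Signals were the linear MAS5 intensities of the Affymetrix rice array. A probe set was called higher or lower in phr123 when its adjusted p from limma, fitted on log2 signals over all 12 arrays and adjusted by the Benjamini-Hochberg method over 28597 probe sets, was under 0.05. Changes are given as log2 differences, phr123 minus phr3. The array also carries reporter probe sets, for sequences that rice lacks. Their 95th percentile on an array, 48.4 to 87.6 over the 12 arrays, served as its background level. The 3 probe sets of the reporter U89963 were left out of that percentile, because their signal in phr123 was already known. A genotype whose 3 arrays all fell within that level gave no measured mean, so the fold is then printed as a lower bound (at least).

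The arrays of the same genotype correlated with each other at 0.88 to 0.881 in phr3 and 0.883 to 0.888 in phr123, against 0.852 to 0.861 for the 9 pairs between the genotypes (Pearson's r of log2 signals, as a description). RNA integrity, read as the log2 ratio of the 3' to the 5' probe set of the glyceraldehyde phosphate dehydrogenase control, was 1.36 to 2.51 in phr3 and 1.54 to 1.8 in phr123. All 9 measured leaf markers of the light reactions and carbon fixation were above background on every array. Of the 4 measured root markers (IRT1, Lsi1, PIP2-4 and PIP2-5) all 4 were above background in both genotypes, and their summed signal was 3764 to 4225 in phr3 and 5908 to 7217 in phr123. Only PIP2-4, an aquaporin, passed the test among them (log2 change 1.34 ± 0.12 (SE), adjusted p = 7.32e-07).

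PHR2 transcript was at background in phr123. Its brighter probe set read 2107, 1939 and 1968 on the 3 phr3 arrays and 18.3, 43.8 and 24.3 on the 3 phr123 arrays, at least 30.9-fold lower (adjusted p = 2.85e-10). PHR1 transcript was lowered but still well above background in phr123, at 569, 753 and 811 against 1204, 1148 and 1135 (log2 change -0.72 ± 0.16 (SE), adjusted p = 0.00218). In the phr1 mutant the same probe set read 404, 514 and 559.5 against 877, 1096 and 1154 in WT, so a residual PHR1 signal was seen in both genotypes that carry the phr1 mutation. The sources used here do not give where the lesion lies relative to the probes.

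PHR3 did not match the labels on 1 array. In phr3 its probe set read 57.7, 119 and 94.5, in WT 462, 469 and 387 and in phr123 1187, 173 and 118. The array labelled phr123 replicate 1 thus had 1187, above every WT array, while replicates 2 and 3 of phr123 lay close to phr3. PHR3 was accordingly called higher in phr123 with all arrays (log2 change 1.74 ± 0.60 (SE), adjusted p = 0.0324), and without that array the log2 change was 0.72 (adjusted p = 0.0631). The same array had PHR2 at background, as the other phr123 arrays did. For some calls and counts below the value without it is given too. The counts of the sugar, auxin, light-reaction, clock, abscisic acid, calcium, P450, ribosome, and nitrogen and potassium lists also moved without it. Abscisic acid genes, for example, went from 15 higher and 18 lower to 13 and 17. Some family counts within the lists moved as well.

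Among the SPX and PHO1 genes 6 of 7 measured genes were lower in phr123 and none was higher (median log2 change -2.68, and -2.51 with the arrays centred on their medians). The median of all tested probe sets was -0.03, and 21.9% of them were called lower and 19.1% higher. The same 6 genes were called without the array labelled phr123 replicate 1. SPX1 read 12349.9, 11338 and 11637 in phr3 and 1939.9, 1784 and 1790.1 in phr123 (log2 change -2.68 ± 0.07 (SE), adjusted p = 1.44e-11). SPX2 read 15031, 11559 and 12129.8 and 2085, 1624 and 1960.3 (log2 change -2.77 ± 0.12 (SE), adjusted p = 9.04e-10). SPX3 read 552, 654 and 643 and 57, 34.3 and 75.7 (log2 change -3.54 ± 0.28 (SE), adjusted p = 2.1e-07). Its phr123 signals lay near the background levels of those arrays, 54.8, 69.2 and 71.9, so the size of its fall is uncertain. The phr123 arrays lay below every phr3 array for these 3 genes, which encode SPX-domain proteins that restrain PHR activity; over all tested probe sets 27.1% had phr123 below phr3 with no overlap. In bulk tissue fewer cells that express a gene and less RNA per cell cannot be told apart.

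SPX5 showed the deepest loss of the family. It read 2547, 2349.9 and 2312 in phr3 and 4.9, 45.7 and 44.8 in phr123, at least 37-fold lower (adjusted p = 6.72e-07), and its second probe set was at least 25.5-fold lower. SPX4, whose product is a phosphate-dependent inhibitor of PHR2 regulated mainly as a protein, read 765, 665 and 923 and 789.9, 938 and 1080.2 and did not pass (log2 change 0.26 ± 0.17 (SE), adjusted p = 0.26, 95% interval -0.11 to 0.62).

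PHO1;2, the exporter that loads phosphate into the xylem, fell from 1220.4, 1241 and 958 to 581, 610.1 and 626 (log2 change -0.90 ± 0.18 (SE), adjusted p = 0.0011). Its second, dimmer probe set did not pass (log2 change 0.09, adjusted p = 0.667). PHO1;3, a related family member, fell from 566, 476 and 579 to 189, 168 and 159.5 (log2 change -1.65 ± 0.23 (SE), adjusted p = 4.51e-05).

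The PHT1 transporters, which take phosphate into cells, moved in both directions: of 6 measured genes PT8 was higher, PT4 was lower, PT1 gave 2 opposite calls and 3 did not pass. Of all tested probe sets 19.1% were higher and 21.9% lower. PT4 fell from 3416, 2676 and 3635 in phr3 to 1062, 1197 and 1092 in phr123 (log2 change -1.53 ± 0.11 (SE), adjusted p = 1.23e-07). PT8 rose from 1967, 2237 and 2440.2 to 4116, 4173 and 4383 (log2 change 0.94 ± 0.10 (SE), adjusted p = 2.89e-06). Both were read by probe sets of the cross-hybridising class (suffix _x_at), so a part of the signal can come from related sequences. A second PT8 probe set, without that suffix, was also higher in phr123, with means of 1682 and 3191 (log2 change 0.95, adjusted p = 0.00014).

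PT1 gave opposite answers from its 2 probe sets. The brighter read 1727, 2152 and 2308 in phr3 and 3487, 4243 and 4191 in phr123 (log2 change 0.95 ± 0.12 (SE), adjusted p = 2.02e-05). The other had a mean of 1974 in phr3 and 397 in phr123 (log2 change -2.39, adjusted p = 1.9e-06), so no direction is given for PT1. PT2, PT3 and PT12 had mean signals under 200 in both genotypes and did not pass (adjusted p 0.509, 0.803 and 0.671).

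The galactolipid enzymes split by type. MGD2 read 3274, 2223 and 2662 in phr3 and 106, 105 and 80.7 in phr123 (log2 change -4.80 ± 0.14 (SE), adjusted p = 2.83e-11), and MGD3 read 4477, 4004 and 4242 and 941, 991 and 940.5 (log2 change -2.15 ± 0.09 (SE), adjusted p = 8.42e-10). MGD1, which makes the bulk of chloroplast galactolipid, read 2583, 2233 and 2366 and 2698, 2589 and 2639 and did not pass (log2 change 0.14 ± 0.11 (SE), adjusted p = 0.317, 95% interval -0.09 to 0.37). Of 2 genes of phosphate-sparing metabolism, AOX1a, the mitochondrial alternative oxidase, rose from 1498, 1519.6 and 1586 to 16174, 11505 and 11437 (log2 change 3.07 ± 0.13 (SE), adjusted p = 8.38e-10), with the array labelled phr123 replicate 1 the highest. PPDKB, a pyruvate orthophosphate dikinase, fell from 10025, 9512 and 9716 to 5097, 5930.1 and 5731 (log2 change -0.81 ± 0.08 (SE), adjusted p = 3.47e-06).

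**Figure D1:**
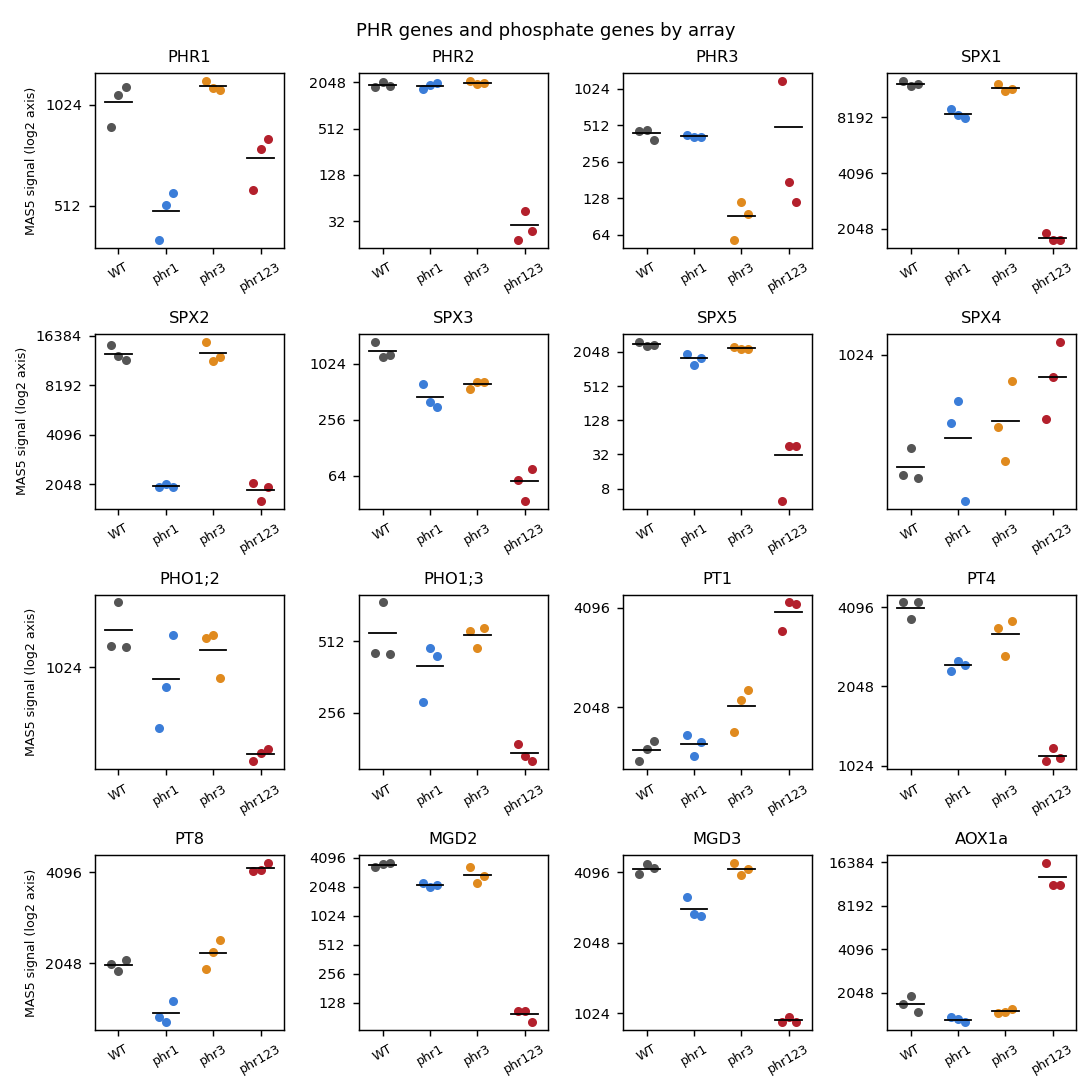
MAS5 signal (log2 axis) of the PHR genes and of phosphate genes on each of the 12 arrays; points are arrays, in replicate order 1 to 3 from left to right, and bars are means of 3. PHR3 on the array labelled phr123 replicate 1 lies at 1187, while SPX1, SPX3, SPX5, MGD2 and MGD3 lie lower on all 3 phr123 arrays than on any phr3 array.

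Between phr3 and phr123, 11714 of 28597 tested probe sets (41.0%) were called, 5461 of them higher and 6253 lower in phr123. At least 2-fold changes with the same threshold numbered 1738 higher (6.08%) and 2924 lower (10.2%). The split depended on the scaling: with each array centred on its median, which moved the median change of all tested probe sets from -0.03 to 0.15, 6284 were higher and 4151 lower. Without the array labelled phr123 replicate 1 the counts were 4839 higher and 5792 lower. A total of 3959 higher and 3875 lower probe sets kept their call and direction under every alternative tried, the replicate block left aside.

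**Figure D2:**
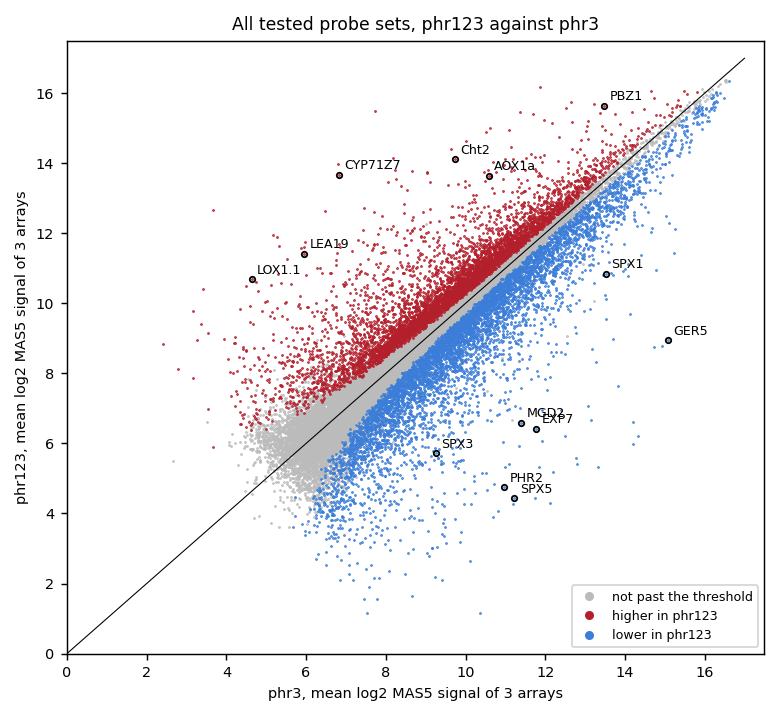
Mean log2 MAS5 signal of 3 phr123 arrays (y axis) against 3 phr3 arrays (x axis) for the 28597 tested probe sets; the line marks equal signal, red and blue points passed the test and grey points did not. GER5, EXP7, MGD2, SPX1, SPX3, SPX5 and PHR2 lie far below the line, and CYP71Z7, Cht2, LEA19 and LOX1.1 far above it.

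The largest fall of a named gene measured in both genotypes was that of GER5, a germin-like protein gene of the apoplast. It read 35743, 35890.2 and 32486 in phr3 and 584, 467 and 438 in phr123 (log2 change -6.14 ± 0.11 (SE), adjusted p = 1.85e-13), with WT at 34897, 38972 and 38345 and phr1 at 38325, 37822 and 31566. Only phr123 was low among the 4 genotypes. Of the 8 measured GER genes, picked out as a family after GER5 was seen, 3 were lower and 3 higher. The shares of all tested probe sets were 21.9% and 19.1%. GER8 read 4472, 4432 and 4730.4 and 531, 358 and 313 (log2 change -3.54) and GER4 943, 902 and 1045 and 103, 93.2 and 146 (log2 change -3.11). GER6 went the other way, from 130.5, 168 and 159 to 647, 1826 and 1703 (log2 change 3.06, adjusted p = 2.01e-06). GER2 and GER7 rose by 1.00 and 0.59 on the log2 scale (adjusted p = 0.0411 and 0.00916), but these 2 calls were lost under some of the alternatives, and GER1 and GER3 did not pass.

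Genes of the cell wall were mostly lower in phr123. The shares were 60.5% lower and 7.0% higher, against 21.9% and 19.1% of all tested probe sets. Of 43 measured genes 26 were lower and 3 higher (median log2 change -0.85, and -0.68 with the arrays centred on their medians; with that centring 21 were lower and 2 higher, and without the array labelled phr123 replicate 1, 26 were lower and 1 was higher). All 9 measured cellulose synthases except CESA2, which was near background, were lower. CESA6, a subunit of the primary wall complex, fell from 3763, 3814 and 3530.5 to 1584, 1219 and 1123 (log2 change -1.52 ± 0.11 (SE), adjusted p = 1.05e-07), and CESA1, of the same complex, from 10314, 9691 and 9476 to 4064, 3749.8 and 3746 (log2 change -1.35 ± 0.09 (SE), adjusted p = 6.18e-08). The secondary wall subunits CESA4, CESA7 and CESA9 fell by 0.96, 1.31 and 1.18 on the log2 scale (adjusted p = 4.47e-06, 8.22e-05 and 2.2e-05). Both kinds of complex were thus lower together.

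Of 15 measured expansins, proteins that loosen the wall of growing cells, 8 were lower and 1 was higher. The shares of all tested probe sets were 21.9% and 19.1%. EXP7 read 3121, 3984 and 3429.7 in phr3 and 92.4, 57.4 and 119 in phr123 (log2 change -5.35 ± 0.20 (SE), adjusted p = 2.97e-10). CSLF6, which makes mixed-linkage glucan, fell from 4669.6, 5158 and 4974 to 2424, 1909.7 and 1669.6 (log2 change -1.32 ± 0.11 (SE), adjusted p = 6.13e-07). BC1L9, a COBRA-like protein gene, was the main exception, with 460.1, 702 and 524 in phr3 and 6353, 7061 and 6331 in phr123 (log2 change 3.57 ± 0.15 (SE), adjusted p = 9.04e-10).

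Other large falls were those of genes of several kinds. PRX74, a peroxidase, read 2051, 1733 and 1747 and 174, 82.7 and 102 (log2 change -4.02), and LAC20, a laccase, 1611, 1765 and 2166 and 82.5, 199.5 and 188 (log2 change -3.65). KRP6, an inhibitor of cyclin-dependent kinases, read 2295, 2430.1 and 2393 and 233, 305 and 277 (log2 change -3.13), while its second probe set was below 50 in both genotypes on average. MIF3, Hox28, BGLU8 and PP2C73 had log2 changes of -4.21, -2.99, -2.99 and -2.92. The highest adjusted p of these 7 genes was 0.000156. Passing the test and no overlap between the genotypes were conditions for listing them. Over all tested probe sets 27.1% had phr123 below phr3 with no overlap.

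For some falls phr123 was at background, and these are given as bounds. TDL1B, a small ligand-like protein gene, read 469, 678 and 602 in phr3 and 14.5, 1.7 and 22 in phr123, at least 8.89-fold lower. BZIP06 was at least 7.39-fold lower, PCF5, a TCP transcription factor gene, at least 3.87-fold, AT1 at least 4.25-fold, IAA14 at least 3.34-fold and CIN2, a cell wall invertase gene, at least 1.95-fold. CHLH was at least 1.4-fold lower on 1 probe set of low signal, and its bright probe set, with means of 13991 and 8939, gave a log2 change of -0.63 (adjusted p = 0.00788).

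Sugar metabolism leaned the same way, with 20 of 43 measured genes lower and 7 higher (median log2 change -0.29, and -0.12 with the arrays centred on their medians; with that centring 12 were lower and 8 higher). These shares were 46.5% and 16.3%, against 21.9% lower and 19.1% higher over all tested probe sets. SUS1, a sucrose synthase, read 9060.3, 9419 and 10341 and 2095, 1330.5 and 1309.9 (log2 change -2.64 ± 0.16 (SE), adjusted p = 1.74e-08), while SUS4 rose from 493, 569.8 and 510.4 to 1903, 1626 and 1415 (log2 change 1.64 ± 0.13 (SE), adjusted p = 3.22e-07). SWEET11, a sugar exporter that serves phloem loading and seed filling, fell from 668, 898 and 755 to 95.3, 74.8 and 127 (log2 change -2.99 ± 0.30 (SE), adjusted p = 2.4e-06). AGPS2, a small subunit of the ADP-glucose pyrophosphorylase of starch synthesis, fell from 11045, 9681 and 8782 to 4611, 4300.5 and 4042 (log2 change -1.18 ± 0.09 (SE), adjusted p = 2.53e-07).

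Auxin signalling genes were lower in 29 of 47 cases and higher in 5 (median log2 change -0.54, and -0.36 with the arrays centred on their medians; with that centring 19 were lower and 5 higher). These shares were 61.7% and 10.6%, with the same overall shares of 21.9% and 19.1%. The Aux/IAA repressors made up 16 of the lower genes, out of 22 measured, and the ARF transcription factors 10 of 15. IAA21 read 9008, 9697 and 8943 in phr3 and 2428, 2995 and 2638 in phr123 (log2 change -1.78 ± 0.11 (SE), adjusted p = 3.3e-08), and IAA13 10005, 9575 and 10669 and 3519.9, 3784 and 3873 (log2 change -1.44 ± 0.07 (SE), adjusted p = 4.72e-09). Of the 5 higher genes 3 belonged to GH3, whose members encode enzymes that conjugate hormones to amino acids.

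Leaf photosynthesis transcripts were a little lower, and part of that rested on the scaling. Of 7 light-reaction genes 5 were lower and none higher, and with the arrays centred on their medians 2 were lower and 1 higher. The 71.4% lower without centring stood against 21.9% of all tested probe sets. PSAH, a photosystem I subunit, read 73957, 70494 and 66398 and 35846, 39024 and 39212 (log2 change -0.89 ± 0.08 (SE), adjusted p = 5.86e-07), and PSB28, a photosystem II assembly factor, 5927, 5372 and 4917 and 2158, 2181 and 2297 (log2 change -1.29 ± 0.12 (SE), adjusted p = 1.4e-06). RBCS, the small Rubisco subunit, fell from 67740.1, 84136 and 60875 to 41319, 50770.3 and 46112 (log2 change -0.61 ± 0.11 (SE), adjusted p = 0.0004), and the fall of Rubisco activase (rca, log2 change -0.26) was not called with centring, with quantile normalization, with no filter (adjusted p = 0.0571) or without phr123 replicate 3 (adjusted p = 0.058). The 3 other rca probe sets were called lower, with log2 changes of -0.31, -0.27 and -0.28. The summed leaf-marker signal was 499439 to 579554 in phr3 and 387925 to 438311 in phr123. Its part in the other results was not tested.

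The largest rise of a named gene measured in both genotypes was that of CYP71Z7, a cytochrome P450 of rice diterpenoid phytoalexin synthesis, the antimicrobial compounds that rice leaves make under attack. It read 84.1, 97.2 and 178 in phr3, 12874, 13206 and 13199.5 in phr123, 178, 271 and 209 in phr1 and 137, 318 and 462 in WT (log2 change 6.85 ± 0.36 (SE), adjusted p = 6.04e-09). All 3 phr123 arrays were thus far above the other 9. Of 9 measured terpenoid genes 5 were higher and none lower (median log2 change 0.78, and 0.96 with the arrays centred on their medians). The 55.6% higher stood against 19.1% of all tested probe sets. Without the array labelled phr123 replicate 1, 4 were higher, the median was 0.59, and none was lower.

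Of the diterpene synthase and oxidase genes of the same compounds, 4 are given here. CPS4, a cyclase of the momilactone branch, read 14.6, 44.1 and 48.3 in phr3, at background, and 1099.8, 1031 and 1021 in phr123, at least 18.8-fold higher (adjusted p = 0.000693). KSL7, a synthase of the phytocassane branch, read 39.4, 73.7 and 32.7 and 649.9, 819 and 779 (log2 change 4.03 ± 1.01 (SE), adjusted p = 0.00535), and CYP701A8, a kaurene oxidase-like P450, 358, 411 and 499 and 4382, 4394 and 4892 (log2 change 3.44 ± 0.13 (SE), adjusted p = 3.7e-10). MAS, momilactone A synthase, read 20.8, 67.1 and 61.1 and 1563, 856 and 829.7 (log2 change 4.56 ± 0.66 (SE), adjusted p = 7.95e-05), with the array labelled phr123 replicate 1 the highest. KSL7 and MAS lay within background on phr3 replicates 1 and 3, so the sizes of their rises are uncertain.

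Of 8 measured CYP76M, CYP71Z and CYP99A genes, grouped after CYP71Z7 was seen, 6 were higher and none lower. The shares of all tested probe sets were 19.1% higher and 21.9% lower. Without the array labelled phr123 replicate 1, 6 of these genes were higher and 1 lower. CYP99A2 rose from 13.6, 93.6 and 35 to 737, 993 and 890.5 (log2 change 4.61 ± 0.54 (SE), adjusted p = 1e-05). CYP71Z6, the neighbour of CYP71Z7 in name, had means of 592 and 429 and did not pass (log2 change -0.54 ± 0.25 (SE), adjusted p = 0.108). The 2 probe sets of CYP76M6 differed in size but not in direction, with log2 changes of 1.54 and 4.53.

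Chitinases, which cut fungal walls, and pathogenesis-related proteins rose almost as a block: 9 of 10 measured genes were higher and none lower, against 19.1% higher over all tested probe sets (median log2 change 1.46, and 1.63 with the arrays centred on their medians). Cht2 read 748, 815 and 1023 in phr3 and 19374, 17370 and 16422 in phr123 (log2 change 4.37 ± 0.20 (SE), adjusted p = 2.04e-09), and Cht3 147, 173 and 183 and 1314, 2315 and 2389 (log2 change 3.54 ± 0.21 (SE), adjusted p = 2.15e-08). PBZ1, a marker of the rice defence response, rose from 10456, 9568 and 14683 to 47544, 53547 and 53059.7 (log2 change 2.17 ± 0.13 (SE), adjusted p = 1.73e-08). These 9 calls held under every alternative tried.

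**Figure D3:**
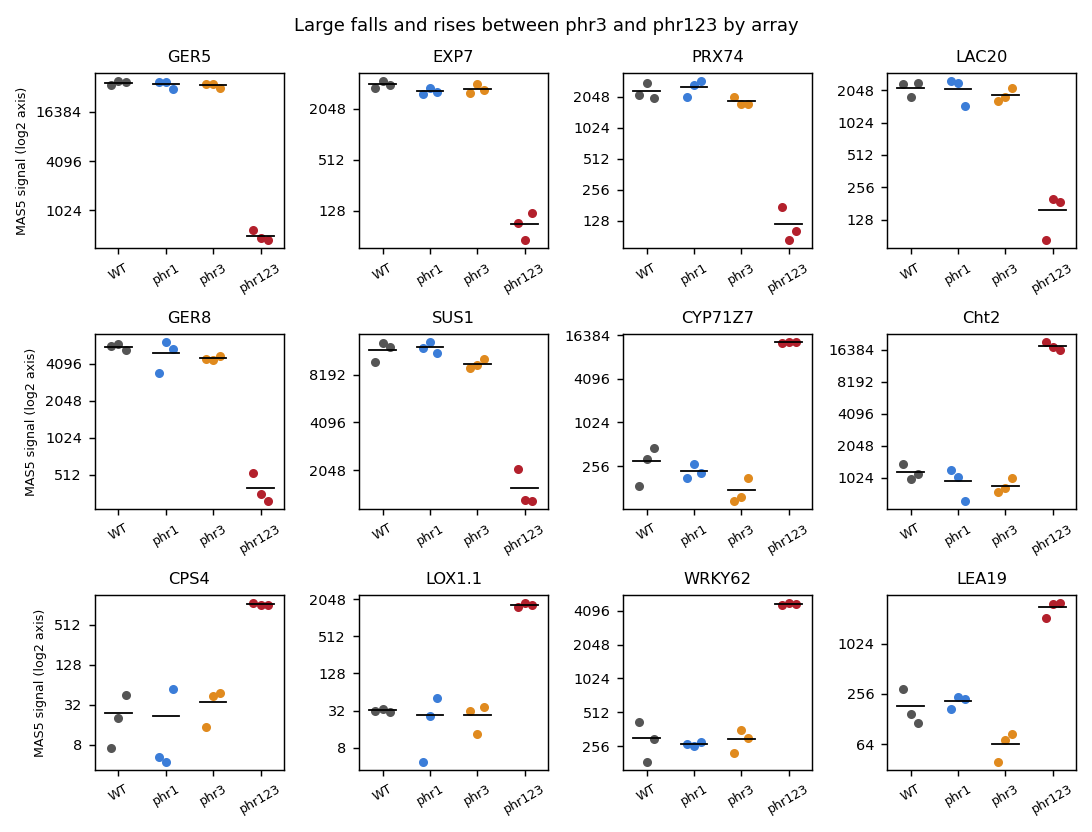
MAS5 signal (log2 axis) of genes with large falls (GER5 to SUS1) and large rises (CYP71Z7 to LEA19) on each of the 12 arrays; points are arrays and bars are means of 3. In each panel the 3 phr123 arrays lie apart from the 9 arrays of WT, phr1 and phr3.

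Jasmonate genes were higher in 17 of 31 measured cases and lower in 3 (median log2 change 0.47, and 0.65 with the arrays centred on their medians; with that centring 18 were higher and none was lower). Without the array labelled phr123 replicate 1 the counts were 17 and 1. With all arrays the shares were 54.8% and 9.7%, against 19.1% and 21.9% of all tested probe sets. Of 5 measured lipoxygenases, which start the pathway, 4 were higher, 3 of them by a large step. LOX2 had a log2 change of 0.35 with a call that was lost under some alternatives, and LOX5 did not pass (log2 change 0.27, adjusted p = 0.0719). CM-LOX2 read 137, 162 and 230.5 in phr3 and 4939, 4202 and 4108 in phr123 (log2 change 4.67 ± 0.23 (SE), adjusted p = 3.96e-09), CM-LOX1 421, 466 and 499.5 and 4409, 4234 and 4721 (log2 change 3.27 ± 0.17 (SE), adjusted p = 5.76e-09). LOX1.1 was at background in phr3, with 31.4, 13.3 and 36.7, and read 1532, 1772 and 1655 in phr123, at least 29.5-fold higher (adjusted p = 1.11e-05). For CM-LOX1, CM-LOX2 and LOX1.1 every phr123 array lay above every phr3 array, as it did at 25.5% of all tested probe sets.

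Further along the pathway AOS2, an allene oxide synthase, rose from 299, 443 and 297 to 1971, 1325 and 1164 (log2 change 2.09 ± 0.23 (SE), adjusted p = 4.94e-06), and OPR1, an oxophytodienoate reductase, from 219.7, 254 and 197 to 1358, 1073 and 1075 (log2 change 2.38 ± 0.17 (SE), adjusted p = 1.02e-07). Of 16 measured JAZ and TIFY genes, which encode repressors that jasmonate itself induces, 9 were higher and 2 lower, and with the arrays centred on their medians 9 were higher and none was lower. The 2 lower ones were JAZ10 and TIFY1a. Before centring, 19.1% of all tested probe sets were higher and 21.9% lower. JAZ10 read 2738.5, 6495 and 4728 in phr3, with means of 2790 in phr123, 1299 in phr1 and 879 in WT. JAZ8 rose from 812, 1283 and 1258 to 6499, 8445 and 7778 (log2 change 2.78 ± 0.18 (SE), adjusted p = 3.04e-08). JAZ1, the brightest of them in phr3, had means of 18118 and 18197 and did not pass (log2 change 0.00, adjusted p = 0.979). The receptor gene COI1 did not pass either (log2 change -0.07, adjusted p = 0.486).

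Of 48 heat shock genes 26 were higher and 5 lower (median log2 change 0.53, and 0.70 with the arrays centred on their medians). These shares were 54.2% and 10.4%, against 19.1% and 21.9% of all tested probe sets. Without the array labelled phr123 replicate 1 the counts were 20 and 5 and the median was 0.33. Several small chaperone genes were far higher on that array than on the other phr123 arrays, as 3 examples chosen after their values were seen show. HSP16.9A read 22762, 5313 and 5394 on the phr123 arrays, HSP23.2 3892, 482 and 523 and HSP26.7 4116, 203 and 252, against means of 1244, 105 and 122 in phr3, and the call of HSP26.7 was lost under some alternatives. HSFA4D, a heat stress transcription factor gene, rose from 584, 490.4 and 726 to 3026, 2939 and 2874 (log2 change 2.31 ± 0.15 (SE), adjusted p = 3.92e-08), and HSP26.2, a small chaperone gene, from 428, 418 and 524 to 1372, 1223 and 1131 (log2 change 1.45 ± 0.13 (SE), adjusted p = 7.57e-07). Within the small chaperones HSP18.8 went the other way, from 21324, 22471 and 23659.8 to 7746, 8396 and 9277 (log2 change -1.41 ± 0.11 (SE), adjusted p = 2.19e-07). HSFA4D and HSP26.2 had WT means of 570 and 774, below every phr123 array. Other higher genes only came near WT or stayed below it. HSP24.1, for example, had means of 4775 in phr3, 11227 in phr123 and 11712 in WT. The brightest probe sets of the HSP90 genes HSP81-1 and HSP81-3 did not pass (adjusted p = 0.192 and 0.321), with means of 31529 and 48204 in phr3 and 34844 and 51892 in phr123, while dimmer probe sets of both genes were called higher.

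Several single genes rose to high signal, LEA19 from near background and the others from measured levels. LEA19, a late embryogenesis abundant protein that protects drying cells, read 39, 70.7 and 84.5 and 2102, 3102 and 3166 (log2 change 5.48 ± 0.34 (SE), adjusted p = 2.64e-08). RBTI, a trypsin inhibitor gene, read 653, 1615 and 3011 and 29126, 31793 and 31285 (log2 change 4.38 ± 0.39 (SE), adjusted p = 6.88e-07); the phr3 arrays alone spanned more than 4-fold. WRKY62, a transcription factor known to damp rice defence, read 224, 359 and 303 and 4570.3, 4800.4 and 4730.4 (log2 change 4.02 ± 0.24 (SE), adjusted p = 1.63e-08), and the related WRKY76 1423, 3610.4 and 1533 and 5370.5, 4448 and 4426 (log2 change 1.25 ± 0.32 (SE), adjusted p = 0.00582). Of 6 measured WRKY genes only these 2 passed, while 41.0% of all tested probe sets passed in either direction.

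RAA1, LAC19, ABCG36 and pinA rose by 5.40, 5.32, 3.97 and 3.87 on the log2 scale (adjusted p = 8.91e-06, 0.00112, 3.23e-09 and 2.9e-06). NSHB1, a non-symbiotic haemoglobin gene, was at least 8.42-fold higher, RAB21, a dehydrin gene, at least 8.86-fold, ZIP3 at least 4.8-fold, HSFB2B at least 3.3-fold and ASMT1 at least 6.32-fold. HSFB2B was low only in phr3, with means of 185 in phr123, 180 in phr1 and 288 in WT. For RAB21 and ASMT1 the array labelled phr123 replicate 1 was the highest, at 1002 and 1289.5 against at most 375 and 246 on the other 2. Without it their calls remained (adjusted p = 0.0028 and 0.00555). One of the 15 largest rises, HAK5, rested on a dim probe set (log2 change 4.28), and its bright probe set, with means of 22482 and 19614, did not pass (log2 change -0.20, adjusted p = 0.107).

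**Figure D4:**
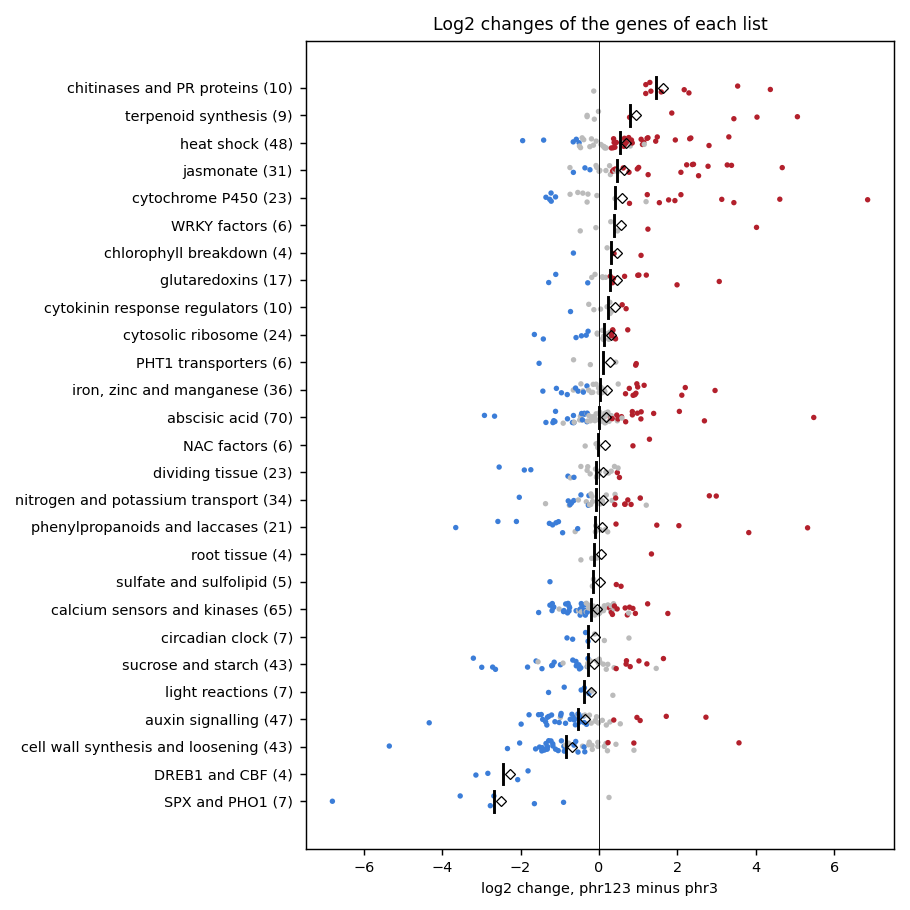
Log2 change, phr123 minus phr3, of each measured gene in the lists with 4 or more measured genes (number in brackets); red and blue points passed the test, grey points did not, black bars are medians and open diamonds are medians with the arrays centred on their medians. Chitinases and terpenoid genes sit highest, SPX and PHO1 genes and DREB1 genes lowest; the medians of the NAC, phenylpropanoid, nitrogen and potassium, sulfate, dividing and root lists change sign with that centring.

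At some genes phr3 had the highest mean signal of the 4 genotypes, as at JAZ10, CML16 and the DREB1 genes CBF3 and DREB1E. DREB1 factors switch on cold and drought genes, and all 4 measured DREB1 genes were lower in phr123 than in phr3. Of all tested probe sets 21.9% were lower. CBF3 read 51.9, 101 and 94.4 in WT, 303, 159 and 225 in phr1, 719, 1505 and 1174 in phr3 and 108, 169.6 and 102 in phr123 (log2 change -3.14 ± 0.34 (SE), adjusted p = 5.73e-06). DREB1E read 112, 84.8 and 78, 112, 84.5 and 119, 210.5, 384 and 238 and 58.3, 79.1 and 97.2 in the same order (log2 change -1.81 ± 0.33 (SE), adjusted p = 0.000497). For both genes the 3 phr3 arrays lay above the other 9.

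DREB1B and DREB1G were also lower in phr123, with calls close to the threshold. DREB1B read 457, 2196 and 1339 in phr3 and 236, 234 and 326 in phr123 (log2 change -2.07 ± 0.67 (SE), adjusted p = 0.0226), and leaving out replicate 1 of phr123 left a log2 change nearly as large (adjusted p = 0.0507). DREB1G read 414, 1453 and 625 and 110.3, 102 and 92.3 (log2 change -2.83 ± 0.99 (SE), adjusted p = 0.034), with a log2 change of -2.90 (adjusted p = 0.0562) without that array. Leaving out phr3 replicate 2 or 3, or phr123 replicate 2, ended both calls as well, as did moderation without a trend with all arrays in; leaving out phr123 replicate 3 or robust moderation ended that of DREB1G. The phr3 arrays differed among themselves by over 3-fold for both genes, replicate 2 being the highest.

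The change between phr3 and phr123 was then set against the change between WT and phr1. The latter shares no array with it and by label is the phr1 mutation with PHR3 present. By label the change from phr3 to phr123 also adds the loss of PHR2, and it takes place with PHR3 missing. The parts of PHR2 loss and of missing PHR3 in any difference between these changes cannot be told apart. Between WT and phr1, 267 probe sets (0.934%) were called, 128 higher (0.448%) and 139 lower (0.486%) in phr1. Of the 139 lower ones 71 (51.1%) were also lower in phr123 than in phr3, and they made up 1.14% of the 6253. Of the 128 higher ones 40 (31.2%) were also higher, 0.732% of the 5461. In the opposite direction went 34 of the lower and 37 of the higher ones. For the higher ones the 40 in the same direction and the 37 in the opposite one were close. Of all tested probe sets 21.9% were lower and 19.1% higher in phr123 than in phr3.

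The 2 changes differed from each other at 8572 probe sets (30.0%) by the test of the difference of differences, 3869 with a higher and 4703 with a lower change between phr3 and phr123. With the arrays centred on their medians the counts were 5952 and 2187. SPX2 was not among them. It read 14335, 12262 and 11643 in WT and 1967, 2058 and 1953 in phr1 (log2 change -2.67 ± 0.12 SE, adjusted p = 4.81e-08), close to its change between phr3 and phr123, and the difference of the 2 changes was -0.10 ± 0.17 (SE, adjusted p = 0.707). The 95% interval of that difference ran from -0.46 to 0.26 on the log2 scale.

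SPX1, SPX3, SPX5 and the galactolipid enzymes behaved otherwise. SPX1 read 9119, 8447 and 8078 in phr1 and 12832, 12049 and 12432 in WT (log2 change -0.54 ± 0.07 SE, adjusted p = 0.00212), and the difference of the 2 changes was -2.14 ± 0.10 (SE, adjusted p = 1.39e-08). SPX3 passed between WT and phr1 too (log2 change -1.67 ± 0.28 SE, adjusted p = 0.00897), with a difference of -1.86 ± 0.39 (SE, adjusted p = 0.00241). The size of that difference is uncertain, because SPX3 signals in phr123 lay near background. SPX5 did not pass between WT and phr1 (log2 change -0.86 ± 0.60 SE, adjusted p = 0.684), with a fitted difference of -5.94 ± 0.85 (SE, adjusted p = 0.000124) that rests on background signals in phr123. MGD2 and MGD3 changed by -0.7 and -0.57 between WT and phr1 (adjusted p = 0.0321 and 0.00653), and the differences were -4.10 ± 0.20 (SE, adjusted p = 1.39e-08) and -1.57 ± 0.13 (SE, adjusted p = 1.02e-06). For each of these genes the loss in phr123 was larger than the loss in phr1.

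PT8 turned direction between the 2 comparisons. It was lower in phr1, with 1360.2, 1312 and 1536, than in WT, with 2045, 1935 and 2108 (log2 change -0.53 ± 0.10 SE, adjusted p = 0.0163), and higher in phr123 than in phr3, and the difference was 1.47 ± 0.14 (SE, adjusted p = 3.03e-06). The difference of PHO1;2 did not pass, at -0.46 ± 0.26 (SE, adjusted p = 0.206), and those of PHO1;3, PT4 and PPDKB were lost with the arrays centred on their medians. The largest differences of named genes measured in both genotypes were those of CYP71Z7, LAC19, LEA19, Cht2 and CYP76M6 upwards and of GER5, EXP7, DREB1B, CBF3 and PRX74 downwards. CYP76M6 took its place through its dimmer probe set, which changed by 4.53 between phr3 and phr123 from a phr3 mean of 48.8. Its brighter probe set changed by only 1.54. LAC19 lay within background on phr3 replicates 1 and 3, at 17.3 and 11.6. For CYP71Z7 the difference was 7.19 ± 0.51 (SE, adjusted p = 3.44e-07) and for GER5 -6.07 ± 0.15 (SE, adjusted p = 2.52e-11), while neither gene passed between WT and phr1 (adjusted p = 0.831 and 0.907).

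**Figure D5:**
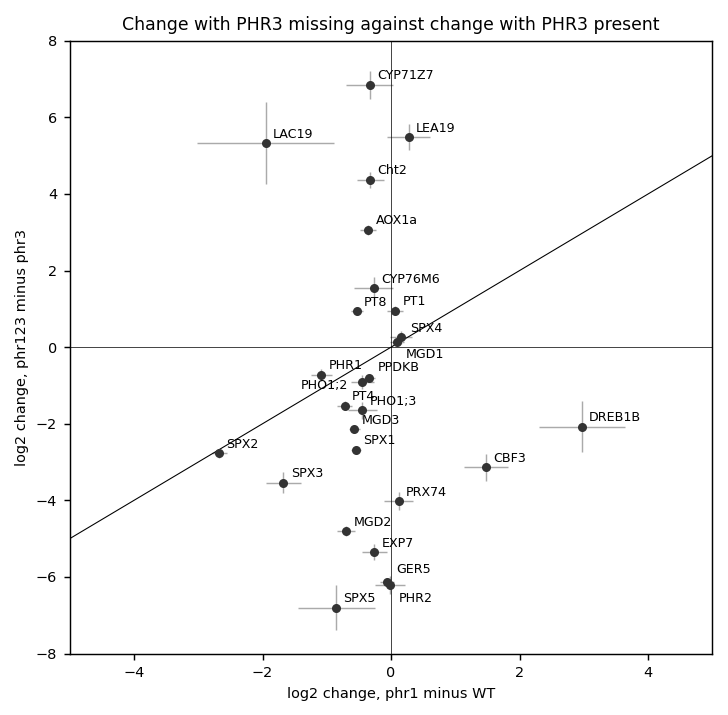
Log2 change between phr3 and phr123 (y axis) against log2 change between WT and phr1 (x axis) for PHR1, PHR2, phosphate genes and the genes with the largest difference of the 2 changes; points are fitted changes from 3 against 3 arrays, error bars are SE and the diagonal marks equal changes. SPX2 lies on the diagonal, SPX1, SPX3, SPX5, MGD2 and MGD3 below it.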

How the data were processed

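The deposited values are linear array intensities made with MAS5, per the submitters' processing notes; the 2% trimmed mean of each array was close to 500.1 as deposited, so the authors' values had been scaled to a common target. The MAS5 version and settings are not given in the sources used here. The array number limits the precision. Control probe sets were left out, signals below 0.1 were set to 0.1, log2 was taken, and the 28597 of 57194 probe sets with a mean log2 signal at or above the median were tested with limma 3.58.1 (R 4.3.3; 1 mean per genotype, moderated with a trend). The scripts were tested on simulated data. Genes were named through the platform annotation and NCBI's gene table (assembly ASM3414082v1); 18303 tested probe sets had exactly 1 gene, of 15469 genes.

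The comparison, gene lists and families were chosen with earlier results of these data known. Named genes were the PHR genes, the phosphate genes, the 15 largest rises and falls whose call and size held under all alternatives (ranked where both genotypes could be measured, others as bounds), up to 4 genes per other list and the 5 largest differences of differences each way; the brightest probe set stood for a gene. In the ranks of largest changes, though, a gene took its place by whichever of its eligible probe sets changed most. For the other lists, called genes were taken by adjusted p, with calls that held under the alternatives first. The differences of differences had to hold too. Replicate numbers did not pair the arrays and no block was used. Alternatives were the 2 genotypes fitted alone, a replicate block, quantile normalization, median centring, a pseudocount of 16, no filter and a stricter one, no trend, robust moderation and leaving out each array. An exact permutation test of 3 against 3 arrays cannot go below p = 0.1.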

Additional observations from a re-analysis of the deposited data

Results flagged for a closer look

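One reporter control, U89963, a sequence placed on the array to detect transgenes and used in no comparison, gave its highest signals on the 3 phr123 arrays. Its main probe set read 373.5, 432.4 and 458.8 on the phr123 arrays (mean 421.6) and at most 119 on the other 9 arrays, 4 of which were above their own background level. Its 2 other probe sets had means of 180.8 and 124.5 in phr123, against at most 63.9 and 34.2 elsewhere. The array labelled phr123 replicate 1, whose PHR3 signal goes against its label, carried this signal as the other phr123 arrays did.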

How the results depend on the processing

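Counts of called probe sets in phr123 against phr3 stayed within 1.5 times of 5461 higher and 6253 lower under all alternatives except median centring, which gave 4151 lower. For the difference of differences the centring gave 5952 higher and 2187 lower against 3869 and 4703, and no other alternative passed 1.5 times. Leaving out 1 array gave 4583 to 5689 higher and 5524 to 6399 lower probe sets, and 3264 to 3735 and 4210 to 4561 for the difference. Same-numbered arrays of different genotypes had correlations of their deviations between -0.046 and 0.032, and 0 of 6 phr3 and phr123 arrays correlated best with its own number; with a replicate block 5312 were higher and 6121 lower, and for the difference 3706 and 4529. The block changed no call of a named gene. Of 145 named probe sets 130 kept their call under every alternative apart from the block, 5 did not pass in the reported fit, none reversed, and the others (PHR3, DREB1B, DREB1G, petC, LHCP, rca, NYC1, GI, PRR95 and RR1) lost it under at least 1 alternative. Many named genes were chosen because their call held, so this share says little about all calls. Of the 5461 higher and 6253 lower probe sets, 3959 and 3875 kept their call under every alternative apart from the block. The share of promoters with the PHR motif was not run, because promoter sequences were not used here. Signals below the reporter level carry no order.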

Other observations

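Nutrient genes beyond phosphate moved in both directions between phr3 and phr123. Of 36 iron, zinc and manganese genes 11 were higher and 8 lower, against 19.1% and 21.9% of all tested probe sets (12 and 3 with the arrays centred on their medians). ZIP8, a zinc transporter, rose from 635, 636 and 655 to 3636, 2485 and 2372 (log2 change 2.11 ± 0.18 (SE), adjusted p = 3.99e-07), and YSL13 from 352, 520.4 and 563 to 2214, 2170.5 and 2086 (log2 change 2.20 ± 0.17 (SE), adjusted p = 1.74e-07). Among 34 nitrogen and potassium genes 9 were higher and 8 lower (10 and 5 with the arrays centred on their medians). HAK17 rose from 1489, 1542 and 2281 to 13533, 13883 and 14025 (log2 change 2.99 ± 0.15 (SE), adjusted p = 4.72e-09) and AMT3-2, named as an ammonium transporter, from 436, 498 and 590.4 to 2906, 3917 and 3918 (log2 change 2.81 ± 0.14 (SE), adjusted p = 4.17e-09). GS2, the chloroplast glutamine synthetase, fell from 36598, 33598 and 33828 to 18261, 22147 and 22143 (log2 change -0.74 ± 0.09 (SE), adjusted p = 2.03e-05).

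Glutaredoxins, small redox proteins, were higher in 9 of 17 cases and lower in 3, and without the array labelled phr123 replicate 1 in 6 and 2. The shares with all arrays were 52.9% and 17.6%, against 19.1% and 21.9% of all tested probe sets. GRXC15 rose from 996, 1202 and 679 to 4206, 3299 and 3683 (log2 change 1.99 ± 0.18 (SE), adjusted p = 6.72e-07), and GRXC7 fell from 2653, 2680.2 and 2304 to 1117, 1248 and 1189 (log2 change -1.10 ± 0.10 (SE), adjusted p = 6.72e-07). Calcium sensor and kinase genes were lower in 25 and higher in 12 of 65 cases, and with the arrays centred on their medians in 13 and 14. The 18.5% higher was close to the overall share of 19.1%, while the 38.5% lower, before centring, was above the overall 21.9%. Abscisic acid genes were higher in 15 and lower in 18 of 70 (19 and 12 with that centring), shares of 21.4% and 25.7% that lie near the overall ones, and P450 genes higher in 10 and lower in 5 of 23. The P450 shares were 43.5% and 21.7%. Of 7 clock genes 4 were lower, of which PRR37 (log2 change -0.81) and PRR73 (log2 change -0.67) held under every alternative. A second PRR37 probe set, with means of 361 in phr3 and 398 in phr123, did not pass (log2 change 0.14, adjusted p = 0.737).

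Phenylpropanoid and laccase genes were higher in 5 and lower in 9 of 21 (6 and 7 with the arrays centred on their medians). The shares were 23.8% and 42.9%, against 19.1% and 21.9% of all tested probe sets. LAC4 fell from 1862, 1448 and 1149 to 363, 355 and 302 (log2 change -2.11 ± 0.16 (SE), adjusted p = 1.65e-07), whereas 4CL5 rose from 939.5, 1058 and 1069 to 3046, 2725 and 2752 (log2 change 1.48 ± 0.14 (SE), adjusted p = 1.01e-06). SGR, which starts chlorophyll breakdown, rose from 1909, 3395 and 3555 to 6133, 5776 and 6061 (log2 change 1.07 ± 0.19 (SE), adjusted p = 0.000383). Cytosolic ribosome genes were higher in 7 and lower in 6 of 24 (10 and 3 with that centring), and genes of dividing tissue in 2 and 5 of 23 (4 and 4 with that centring). The shares with no centring were 29.2% and 25.0% for ribosome genes and 8.7% and 21.7% for genes of dividing tissue. Without the array labelled phr123 replicate 1 the dividing tissue counts were 4 and 4.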
